A study of Mus musculus with 4 samples.

Results

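Splicing factors and nuclear RNA-binding proteins are described here as 82 genes of the 3117 whose phosphorylated RNA polymerase II signal was listed in B16F10 cells. They were chosen by gene symbol and by no measured value: the Snrp, Snrnp and Lsm genes of the small nuclear ribonucleoproteins (snRNPs), Sf1, the Sf3 and U2af genes and U2surp, the Prpf genes and DEAH-box helicases, the Srsf genes of SR proteins, the Tra2, Clk, Luc7l and Srrm genes, the Hnrnp and Rbm genes, and the regulators Ptbp, Tia1, Tial1, Celf, Mbnl and Khdrbs. Sf3b4, which these symbols would include, was left out. Earlier results of these data were known when the symbols were chosen. All 82 were listed at the transcription start site (TSS) among 3112 genes, and 80 were listed at the transcription end site (TES) among 3030 genes. Srsf2 and Hnrnpa2b1 were listed at the TSS alone. Among the 82, Lsm14a shares its prefix with snRNP proteins but encodes a protein of cytoplasmic mRNA particles, and Rbm3os is a noncoding gene that lies opposite Rbm3.

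Nascent RNA was measured by mNET-seq (native elongating transcript sequencing for mammalian cells), which sequences RNA held by polymerase II after chromatin is cut with micrococcal nuclease and the polymerase is pulled down with an antibody. The cells were Carm1 KO B16F10 cells and control B16F10 cells labelled wild type. B16F10 is a mouse melanoma line, and Carm1 is an arginine methyltransferase. For each condition, 3 sets of cells were pooled after the nuclease step and gave 1 library with an antibody to polymerase II phosphorylated at Ser2 of its C-terminal domain (Ser2P) and 1 with an antibody to that domain, called total polymerase II here. How the Carm1 KO line was made and whether it is 1 clone are not given in the labels, and Carm1 itself was not checked. Of 10 melanocyte genes looked up, 6 were listed (Mc1r, Mlana, Pmel, Sox10, Tyr and Tyrp1), and Dct, Mitf, Oca2 and Slc45a2 were not. A listing says only that a ratio was deposited for a gene, since these values are not expression levels.

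Spliceosomes assemble on introns from snRNPs, which recognise splice sites and the branch point, and from many associated proteins and helicases. SR proteins bind exons and generally favour use of nearby splice sites, whereas hnRNPs coat nascent RNA and often oppose it. Much splicing takes place while polymerase II is still transcribing, and Ser2 phosphorylation of its C-terminal domain, which is usually low at gene starts and high towards gene ends, helps recruit splicing and cleavage factors. CARM1 is known to methylate splicing proteins as well as histones. The values below concern transcription of the genes that encode these proteins, and do not measure the proteins or the splicing of their targets.

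Each value is a Ser2P ratio as the authors deposited it, 1 per gene, end and condition. The signal used as divisor is not named, values above 1 occur, and a difference in a ratio cannot be assigned to its numerator or its divisor. Depth is unknown and there is no replicate, so no test was made, and higher or lower below means at least 1.5-fold apart in these libraries on the deposited scale. Changes are log2(Carm1 KO ratio / control ratio) with no pseudocount. Over all genes the median change was 1.17 at the TSS and 0.85 at the TES, so a centred change, with that median subtracted, is given beside the groups' changes. The TSS and TES ratios come from the same libraries and are not independent. Many ratios were shared by several genes: 30 of the 82 genes at the TSS, but 61 of 80 at the TES, had ratios that no other gene of the table had in either condition.

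In both conditions the splicing genes had low Ser2P ratios at their starts and high ones at their ends. At the TSS their median ratio was 0.165 in Carm1 KO cells and 0.0767 in control cells, beside medians over all genes of 0.179 in Carm1 KO cells and 0.0864 in control cells. At the TES their median ratio was 2.72 in Carm1 KO cells and 1.77 in control cells, beside 3.0 in Carm1 KO cells and 1.71 in control cells over all genes. Among the 75 splicing genes above 0 at both ends in both conditions, the TES ratio was a median of 18.2 times the TSS ratio in Carm1 KO cells and 22.4 times in control cells. Over 2775 genes of all kinds these medians were 15.7 in Carm1 KO cells and 19.5 in control cells. The Rbm genes had a shallower gradient, with medians of 4.58 in Carm1 KO cells and 7.77 in control cells over 15 genes, Rbm3os included. The medians of the SR protein genes were 33.1 in Carm1 KO cells and 31.1 in control cells over 6 genes, those of the SR-related genes 22.7 in Carm1 KO cells and 39.8 in control cells over 8, and those of the regulators 19.2 in Carm1 KO cells and 53.6 in control cells over 7.

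**Figure D1:**
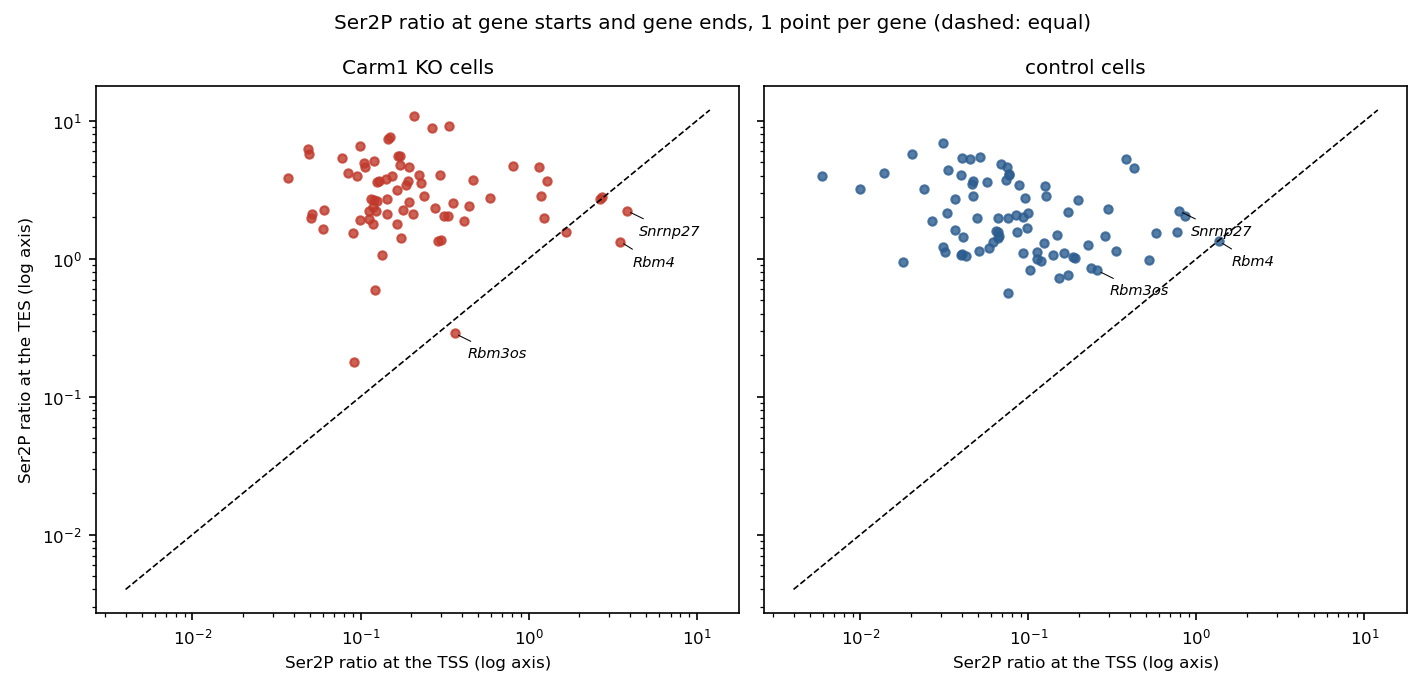
Ser2P ratio at the TES (vertical log axis) against that at the TSS (horizontal log axis) for each splicing gene, 1 point per gene, in Carm1 KO cells (left) and control cells (right). Most points lie above the dashed line of equal ratios; 4 genes lie below it in Carm1 KO cells and 1, Rbm4, in control cells.

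At the TSS, the Ser2P ratio of most splicing genes was higher in Carm1 KO cells, to the same degree as that of genes in general. Of 77 splicing genes above 0 in both conditions, 58 were higher in Carm1 KO cells (75.3%), against 71.2% of all 2859 genes compared. Rbm39 alone was lower (1.30%), against 5.6% of all genes, and 18 lay between. Their median change was 1.17, the same as over all genes, with quartiles of 0.59 and 1.70 beside 0.46 and 1.89 over all genes. On the centred scale 18 were higher, against 28.6% of all genes, and 19 were lower, against 28.8%. These shares lie near or below those of all genes and are no result about splicing genes as a group.

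**Figure D2:**
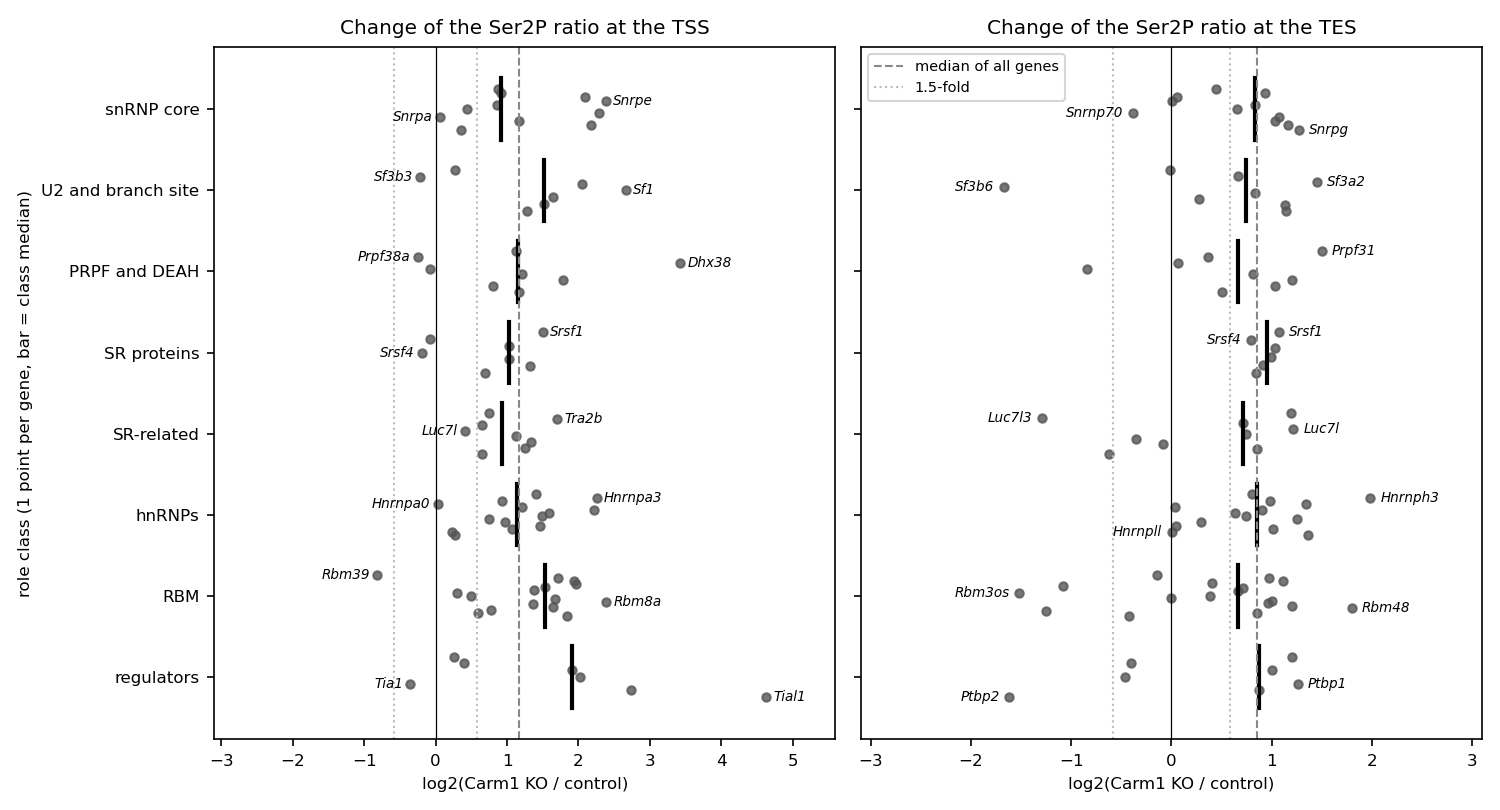
Log2(Carm1 KO ratio / control ratio) of each splicing gene by role at the TSS and the TES, with each role's median and the median of all genes. At the TSS the role medians run between 0.91 and 1.91; at the TES the 6 SR protein genes lie between 0.80 and 1.07, and genes of the other roles reach down to -1.67.

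The snRNP genes had a median change at the TSS of 0.91 (centred -0.25). Of 11, 8 were higher in Carm1 KO cells (72.7%), against 71.2% of all genes. The 11 include Lsm14a, grouped here by its symbol alone, with a change of 2.09. Snrpe, which encodes a protein of the ring that all Sm-class snRNPs share, had a ratio of 1.184 in Carm1 KO cells and 0.226 in control cells, a change of 2.39. Snrnp27, for a protein of the tri-snRNP, had 3.85 in Carm1 KO cells and 0.786 in control cells, a change of 2.29. Both lay well above the all-gene median, as did Snrpd3, another ring protein gene, with 0.224 in Carm1 KO cells and 0.0493 in control cells. Its neighbour in the same ring, Snrpg, had 1.28 in Carm1 KO cells and 0.571 in control cells, a change of 1.17 that equals the median of all genes. At the low end, Snrpa, for the U1 snRNP protein that binds a stem-loop of U1 RNA, had 0.0608 in Carm1 KO cells and 0.0584 in control cells. Lsm8, for a protein of the ring on U6 RNA, had 0.143 in Carm1 KO cells and 0.113 in control cells. The changes of Snrpa and Lsm8 were 0.06 and 0.35, the 2 smallest among these genes. Snrnp70, for a further U1 snRNP protein, had 0.0600 in Carm1 KO cells and 0.0328 in control cells. Its TSS change of 0.87 stood between these extremes.

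SR protein genes had a median change at the TSS of 1.02 (centred -0.15). Of 7, 5 were higher in Carm1 KO cells (71.4%), against 71.2% of all genes. Srsf1, which encodes the founding SR protein, had a ratio of 0.0506 in Carm1 KO cells and 0.0178 in control cells, a change of 1.51. Srsf6 had 0.09995 in Carm1 KO cells and 0.0398 in control cells, a change of 1.33. Both had low TSS ratios, with the Carm1 KO value above the control value. Srsf2 and Srsf4 did not reach the threshold: Srsf2, for an SR protein also tied to release of paused polymerase, had 0.0470 in Carm1 KO cells and 0.0498 in control cells. Srsf4 had 0.336 in Carm1 KO cells and 0.383 in control cells, the highest control TSS ratio among the 7 SR genes. For both the conditions lay close together, with changes of -0.08 and -0.19. Srsf2 was the 1 SR gene whose TSS ratios no other gene shared. Srsf11, Srsf10 and Srsf7 had changes of 1.02, 1.03 and 0.69.

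The hnRNP genes had a median change at the TSS of 1.15 (centred -0.02). Of 14, 11 were higher in Carm1 KO cells (78.6%), against 71.2% of all genes. Hnrnpa3 had a ratio of 0.193 in Carm1 KO cells and 0.0405 in control cells, a change of 2.26. Hnrnpul1, whose product resembles the scaffold protein hnRNP U, had 0.467 in Carm1 KO cells and 0.0999 in control cells, a change of 2.22. They were 4.78-fold and 4.67-fold higher in Carm1 KO cells. Among the other A-type genes, Hnrnpa1 and Hnrnpa0 did not share this. Hnrnpa1, whose product represses many exons, had 0.165 in Carm1 KO cells and 0.141 in control cells. Hnrnpa0 had 0.175 in Carm1 KO cells and 0.171 in control cells. The changes of Hnrnpa1 and Hnrnpa0 were 0.23 and 0.03. Hnrnpa2b1, also of the A type, was higher, with 0.145 in Carm1 KO cells and 0.0515 in control cells, a change of 1.497. Hnrnpu had 0.113 in Carm1 KO cells and 0.0932 in control cells. So the gap between conditions ran from almost none in Hnrnpa0 to that of Hnrnpa3 within this family. The medians of the snRNP, SR and hnRNP genes lay between 0.91 and 1.15, within families whose own changes were 2.33, 1.70 and 2.23 wide.

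**Figure D3:**
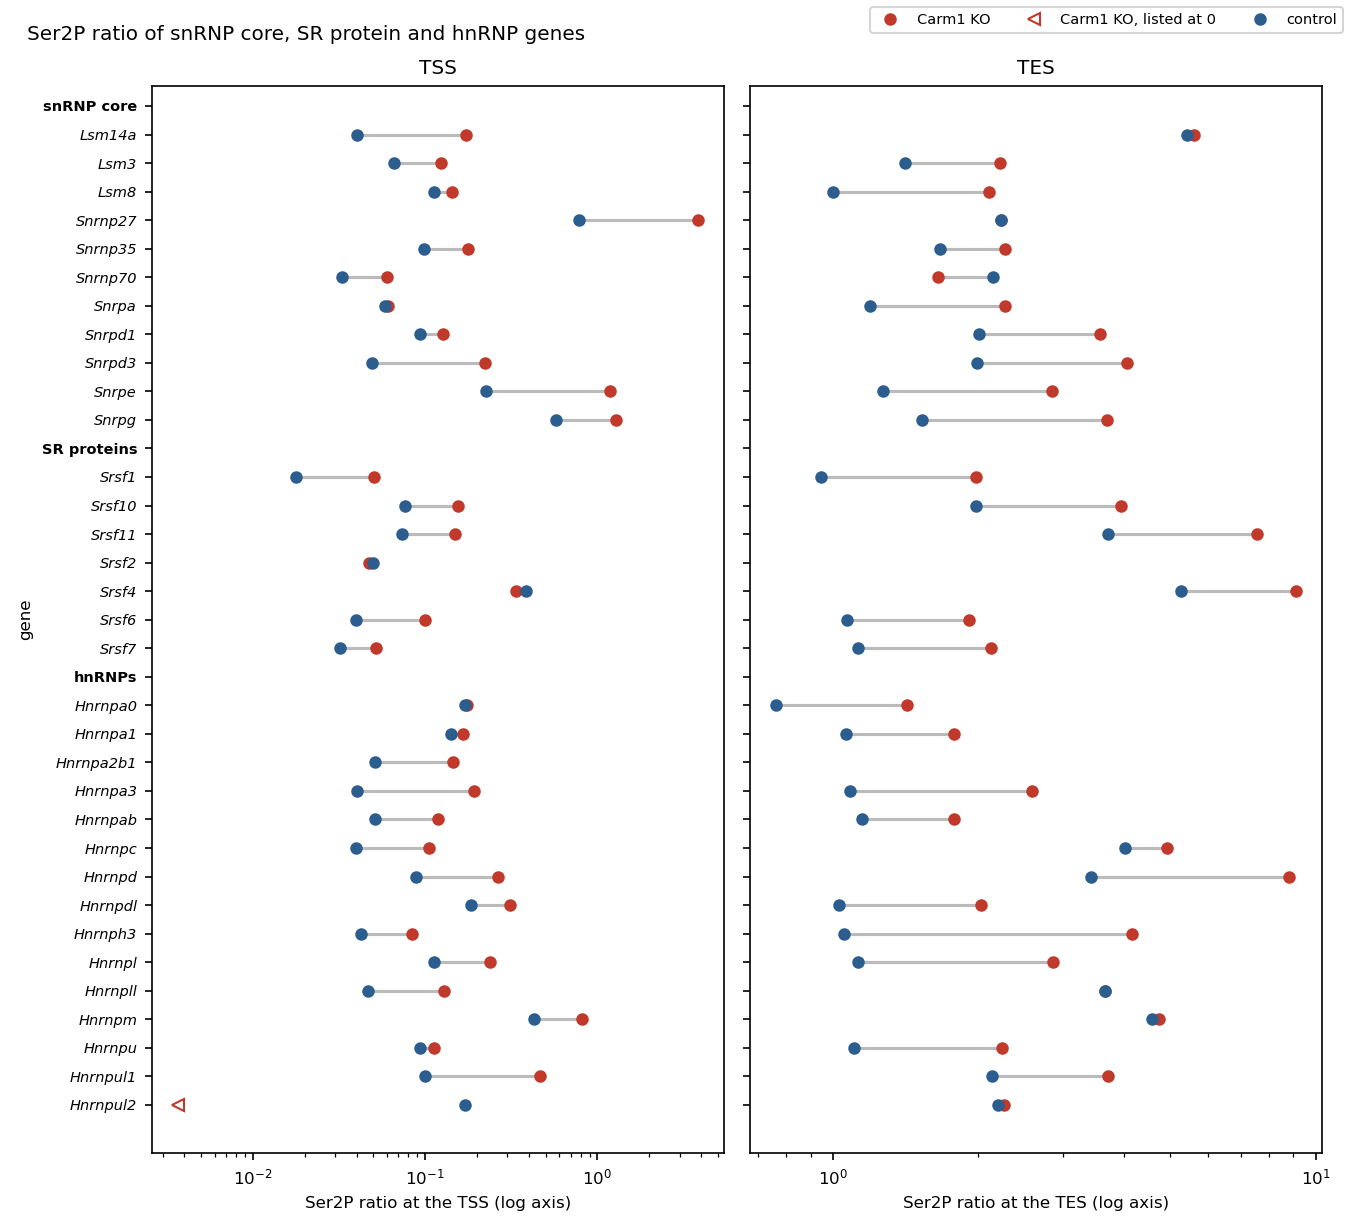
Ser2P ratios (log axes) of the snRNP, SR protein and hnRNP genes at the TSS and the TES, 1 gene per row, with Carm1 KO and control values joined by a line. At the TSS the gap between conditions varies within each family; at the TES each SR protein gene has the higher value in Carm1 KO cells.

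Genes for the proteins that recognise the branch point and polypyrimidine tract had a median change at the TSS of 1.51 (centred 0.35) over 7 genes. Sf1, for the protein that binds the branch point first, had 0.230 in Carm1 KO cells and 0.0364 in control cells, a change of 2.66. U2af2 and U2af1, for the large and small subunits of the factor that reads the polypyrimidine tract and the adjoining splice site, had 0.279 and 0.187 in Carm1 KO cells, and 0.0671 and 0.0656 in control cells. These 3 genes were each higher in Carm1 KO cells. Sf3b1, for the largest protein of the SF3B complex, had 0.0493 in Carm1 KO cells and 0.0204 in control cells, a change of 1.27. Sf3b3 and Sf3b6, for 2 other SF3B proteins, did not reach the threshold, with changes of -0.21 and 0.28. Among the Prpf and helicase genes, with a median change of 1.15 (centred -0.02; 2.60 over the 2 genes with unshared ratios), Dhx38 stood apart with 0.106 in Carm1 KO cells and 0.00989 in control cells, a change of 3.43 that became 2.67 with a pseudocount of 0.00809. Dhx38 encodes the helicase Prp16, which remodels the spliceosome between its catalytic steps. Prpf38a, for a protein needed to activate the spliceosome, had 0.125 in Carm1 KO cells and 0.149 in control cells. The conditions lay close together in this gene.

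The widest spread at the TSS was among the regulators, whose 7 changes ran from -0.35 to 4.63 with a median of 1.91 (centred 0.74). That median was 1.08 over the 4 genes with no other gene end near, 0.26 over the 3 with unshared ratios and 2.52 over the 2 under 25 kb. The ends of that range were the close paralogs Tia1 and Tial1, whose products bind uridine-rich RNA, promote use of weak splice donors and enter stress granules. Tial1 had a TSS ratio of 0.146 in Carm1 KO cells and 0.00588 in control cells, 24.8-fold higher in Carm1 KO cells, and its control value was the lowest of the 82 genes. With the pseudocount of 0.00809, which exceeds that control value, its change was 3.46 in place of 4.63. Tia1 had 0.0990 in Carm1 KO cells and 0.127 in control cells. The Carm1 KO values of the pair were thus within the same range, and the control values far apart. Ptbp3 and Ptbp2, for polypyrimidine tract-binding repressors, had 0.298 and 0.288 in Carm1 KO cells, and 0.0447 and 0.0767 in control cells. Each of these 2 Carm1 KO ratios was held by 10 genes at the TSS, and the Ptbp3 control ratio by 11. Ptbp1, for the founding member of that family, had 0.164 in Carm1 KO cells and 0.124 in control cells, a change of 0.40. Khdrbs1, which encodes Sam68, had 0.209 in Carm1 KO cells and 0.0514 in control cells. Mbnl2, for a regulator of developmental splicing, had 0.121 in Carm1 KO cells and 0.102 in control cells, below the threshold.

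The Rbm genes, most of whose products share RNA recognition motifs and little else, had a median change at the TSS of 1.53 (centred 0.36). Without the noncoding Rbm3os that median was 1.59 over 14 genes. Of 15, Rbm3os included, 12 were higher (80%), against 71.2% of all genes, and 1 was lower (6.67%), against 5.6%. Rbm8a, for the exon junction complex protein Y14, had 1.24 in Carm1 KO cells and 0.237 in control cells, a change of 2.39. Rbm5, for a regulator of apoptotic gene splicing, had 1.15 in Carm1 KO cells and 0.296 in control cells, a change of 1.96. Both had a ratio above 1 in Carm1 KO cells and well below it in control cells. The single lower gene, Rbm39, had 0.0372 in Carm1 KO cells and 0.0655 in control cells, a change of -0.82. RBM39 is the U2AF-related splicing factor that aryl sulfonamide drugs degrade. TSS ratios above 1 were found in 9 of the 82 genes in Carm1 KO cells, against 14.5% of all genes, and in 1 gene in control cells, against 4.15%. Of those 9, 6 were Rbm genes: Rbm4, Rbm42, Rbm22, Rbm15b, Rbm8a and Rbm5. Rbm4, whose product regulates alternative splicing, had the highest TSS ratio of the 82 genes in control cells, with 3.51 in Carm1 KO cells and 1.37 in control cells. Its TES ratio, 1.33 in Carm1 KO cells and 1.34 in control cells, was below its TSS ratio in both conditions.

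Genes for SR-related proteins had a median change at the TSS of 0.94 (centred -0.23). Of 8, 7 were higher in Carm1 KO cells (87.5%), against 71.2% of all genes. Tra2b and Tra2a, for the paired activators of exon inclusion, had 0.0776 and 0.116 in Carm1 KO cells, and 0.0239 and 0.0459 in control cells. Clk1, for a kinase that phosphorylates SR proteins, had 0.445 in Carm1 KO cells and 0.284 in control cells. These ratios were all higher in Carm1 KO cells. The exception below the threshold was Luc7l, for a U1-associated protein, with 0.0489 in Carm1 KO cells and 0.0367 in control cells. The TSS ratio of 5 of the 82 genes was listed at 0 in Carm1 KO cells and above 0 in control cells: Hnrnpul2 at 0.171, Srrm1 at 0.0467, Rbm33 at 0.0312, Rbm12 at 0.0267 and U2surp at 0.0139. Over all genes this held for 5.05% of those above 0 in control cells. No splicing gene was listed at 0 in control cells, and no fold is given for these 5. With a pseudocount they counted as lower, which made 6 lower genes of 82 at the TSS. The share of all genes was not computed with a pseudocount.

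The promoter sequences of 5 genes that mark contrasts at the TSS are shown next to place their annotated starts. The start that the authors used for each gene is not given. Each run is the 250 bases that precede the start in RefSeq on GRCm38.p6, on the strand of the gene, with capitals for matches to CCGGAA (the core of ETS factor sites), GGGCGG (a GC box) and CCAAT on either strand, none of which overlap each other here. Tial1 and Tia1 are the paralogs at the ends of the regulators' range, Sf1 and Snrpe are among the genes with large changes, and Rbm39 is the lower gene.
Tial1: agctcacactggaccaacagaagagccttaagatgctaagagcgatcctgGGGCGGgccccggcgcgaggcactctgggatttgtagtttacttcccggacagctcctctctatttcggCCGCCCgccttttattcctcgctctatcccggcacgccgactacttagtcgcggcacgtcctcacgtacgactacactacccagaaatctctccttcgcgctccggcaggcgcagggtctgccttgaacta
Tia1: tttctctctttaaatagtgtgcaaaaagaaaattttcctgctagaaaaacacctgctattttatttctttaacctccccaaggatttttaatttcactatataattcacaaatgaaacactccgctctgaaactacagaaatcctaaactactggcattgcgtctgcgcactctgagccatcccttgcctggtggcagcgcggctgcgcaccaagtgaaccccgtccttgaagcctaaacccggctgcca
Sf1: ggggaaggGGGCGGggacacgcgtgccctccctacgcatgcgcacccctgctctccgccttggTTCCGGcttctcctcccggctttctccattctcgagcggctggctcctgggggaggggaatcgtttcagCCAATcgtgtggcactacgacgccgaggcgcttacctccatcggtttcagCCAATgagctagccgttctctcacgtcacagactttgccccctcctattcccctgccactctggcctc
Snrpe: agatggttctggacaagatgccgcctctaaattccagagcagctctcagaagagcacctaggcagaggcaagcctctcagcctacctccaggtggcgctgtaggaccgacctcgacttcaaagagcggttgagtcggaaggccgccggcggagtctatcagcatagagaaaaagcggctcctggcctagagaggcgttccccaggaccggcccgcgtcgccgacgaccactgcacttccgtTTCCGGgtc
Rbm39: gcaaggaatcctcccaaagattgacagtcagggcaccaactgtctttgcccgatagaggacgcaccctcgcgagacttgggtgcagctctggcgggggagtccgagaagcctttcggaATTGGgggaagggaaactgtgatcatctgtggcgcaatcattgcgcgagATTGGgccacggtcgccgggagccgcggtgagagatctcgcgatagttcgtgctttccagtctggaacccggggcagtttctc

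These windows lie at chr7:128461674-128461923 on the minus strand for Tial1, chr6:86403969-86404218 on the plus strand for Tia1, chr19:6363440-6363689 on the plus strand for Sf1, chr1:133610281-133610530 on the minus strand for Snrpe and chr2:156180239-156180488 on the minus strand for Rbm39. The RefSeq start is 44 bases from the GENCODE start for Tial1, 11 bases for Snrpe and the same for the others. The Tial1 window held 2 GC boxes at 58.8% GC, and the Tia1 window held none of the 3 motifs at 44% GC. The Sf1 window held 1 ETS core, 1 GC box and 2 CCAAT boxes, the Snrpe window 1 ETS core, and the Rbm39 window 2 CCAAT boxes. Windows were found for 69 of the 82 genes, for 2495 listed genes and for 20562 genes in all. The GC box was in 65.2% of the splicing gene windows, in 63.9% of the listed and in 39.4% of all windows. ETS cores were in 36.2% of the splicing gene windows, in 31.2% of the listed and in 14.2% of all. For the CCAAT box the shares were 44.9% of splicing gene, 39.4% of listed and 35.15% of all windows. The splicing genes thus had motif shares close to those of the other genes listed in these cells. A match describes letters only, and no binding was measured.

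At the TES, 50 of 80 splicing genes were higher in Carm1 KO cells (62.5%), against 66.7% of all 3016 genes compared, and 8 were lower (10%), against 7.13%. Their median change was 0.81, beside 0.85 over all genes, and their quartiles were 0.04 and 1.05, beside 0.35 and 1.17. On the centred scale 4 were higher, against 11.6% of all genes, and 23 were lower, against 22%. Of the 80 changes, 63 were above 0 as deposited and 36 lay above the median of all genes. No splicing gene was listed at 0 at the TES in either condition, against 0.0994% of all genes listed at 0 in Carm1 KO cells and above 0 in control cells. The SR protein genes, the fewest of any role here, had the narrowest range, with changes from 0.80 to 1.07 and a median of 0.96 (centred 0.11). All 6 were higher in Carm1 KO cells on the deposited scale, against 66.7% of all genes and 81.8% of all genes under 25 kb. The quartiles over all genes under 25 kb were 0.69 and 1.23. With the SR-related genes added, 11 of 15 were higher and 2 lower. Srsf11 had 7.58 in Carm1 KO cells and 3.71 in control cells, and Srsf4 had 9.12 in Carm1 KO cells and 5.25 in control cells. Srsf1 had 1.98 in Carm1 KO cells and 0.942 in control cells, and Srsf6 had 1.91 in Carm1 KO cells and 1.07 in control cells. The levels of the family thus differed several fold while the ratios between conditions were alike, also in Srsf4, whose TSS ratios were close together.

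The snRNP genes had a median change at the TES of 0.83 (centred -0.02). Of 11, 7 were higher (63.6%), against 66.7% of all genes, and none was lower, against 7.13%. Lsm14a, counted among the 11, had a change of 0.05. Snrpg had 3.69 in Carm1 KO cells and 1.53 in control cells, a change of 1.27. Snrpe had 2.85 in Carm1 KO cells and 1.27 in control cells, a change of 1.17. Lsm8 had 2.1 in Carm1 KO cells and 0.997 in control cells, so that this gene, whose TSS change was small, had a TES change of 1.07. Snrnp27, by contrast, had 2.23 in Carm1 KO cells and 2.22 in control cells, a TES change of 0.00 beside its large TSS change. Snrnp70 had 1.65 in Carm1 KO cells and 2.15 in control cells, a change of -0.38 that did not reach the threshold.

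The hnRNP genes had a median change at the TES of 0.85 (centred 0.00). Of 14, 10 were higher (71.4%), against 66.7% of all genes, and none was lower, against 7.13%. Hnrnph3 had 4.16 in Carm1 KO cells and 1.05 in control cells, a change of 1.98 and the largest of the 80. Hnrnpd, which encodes the AU-rich element binding protein AUF1, had 8.81 in Carm1 KO cells and 3.43 in control cells, a change of 1.36. Hnrnpl, for a binder of CA-rich RNA, had 2.85 in Carm1 KO cells and 1.12 in control cells. These genes were higher in Carm1 KO cells, whereas Hnrnpll, Hnrnpul2 and Hnrnpm had nearly equal ratios, with changes of 0.00, 0.04 and 0.05. Hnrnpll had 3.66 in both conditions, and Hnrnpm, for a regulator of exon choice, had 4.74 in Carm1 KO cells and 4.59 in control cells.

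Among the other roles, TES medians were 0.75 for the branch point genes (centred -0.10), 0.66 for the Prpf and helicase genes (centred -0.19), 0.71 for the SR-related genes (centred -0.14, and -0.21 over the 6 with no other gene end near), 0.67 for the Rbm genes (centred -0.18) and 0.87 for the regulators (centred 0.02, and 0.23 over the 6 with no other gene end near). Without Rbm3os the Rbm median was 0.69 over 16 genes. Rbm48, for a protein of the minor spliceosome, had 5.55 in Carm1 KO cells and 1.59 in control cells, a change of 1.80. Prpf31, for a tri-snRNP protein whose human gene is mutated in retinitis pigmentosa, had 2.04 in Carm1 KO cells and 0.722 in control cells, a change of 1.501. Sf3a2, for an SF3A protein of the U2 snRNP, had 2.77 in Carm1 KO cells and 1.01 in control cells. These were the largest changes of their roles and were higher in Carm1 KO cells. Sf3b1 had 5.72 in Carm1 KO cells and 5.76 in control cells, and Dhx15, for the helicase that takes spliceosomes apart, had 5.11 in Carm1 KO cells and 4.88 in control cells. Those 2 genes had high TES ratios with hardly any gap between conditions.

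The genes that were lower at the TES came from several roles, and 7 of the 8 are described here. Sf3b6, for the SF3B protein that lies at the branch point, had 0.178 in Carm1 KO cells and 0.565 in control cells, a change of -1.67 that became -1.08 with a pseudocount of 0.171. Ptbp2, for the neuronal paralog of PTBP1, had 1.34 in Carm1 KO cells and 4.11 in control cells, a change of -1.62, and both its ratios were shared with other genes. Rbm3os had 0.288 in Carm1 KO cells and 0.823 in control cells, a change of -1.52. Sf3b6 and Rbm3os had the 2 lowest TES ratios of the 80 genes in Carm1 KO cells. Luc7l3 and Luc7l2, for U1-associated proteins, had 1.37 and 2.65 in Carm1 KO cells, and 3.35 and 4.08 in control cells. Rbm33 had 3.25 in Carm1 KO cells and 6.90 in control cells, and Rbm19, for a protein of ribosome assembly, had 1.94 in Carm1 KO cells and 4.63 in control cells. Rbm33 had the highest TES ratio of the 80 genes in control cells.

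Of these 8 genes, 6 were at least 25 kb long, among them Rbm33 at 102 kb, Rbm19 at 82.5 kb, Ptbp2 at 65.7 kb, Luc7l2 at 58.1 kb and Luc7l3 at 34.1 kb. Sf3b6 at 10.1 kb and Rbm3os at 2.54 kb were short. Splicing genes of 25 kb or longer had a median change at the TES of 0.05, with 9 of 27 higher (33.3%) and 6 lower (22.2%). All genes of that length had a median of 0.40, with 44.1% higher and 16.1% lower. The splicing genes under 25 kb had a median of 0.90, with 41 of 53 higher and 2 lower, beside 0.97 over all genes under 25 kb, of which 81.8% were higher and 1.01% lower. At the TSS the medians were alike, 1.14 for the longer and 1.17 for the shorter splicing genes. There 17 of 24 longer genes were higher and 1 was lower, against 70.8% and 6.63% of all genes of that length, and 41 of 53 shorter genes were higher and 0 lower, against 71.7% and 4.84%. Gene length thus moved with the TES change among splicing genes as among all genes, and its part in the single results was not tested. The SR protein genes, with a median length at the TES of 10.7 kb, were among the shorter roles. Srsf4 at 28.1 kb and Srsf11 at 26.2 kb lay just past the split. Both were higher in Carm1 KO cells, as were 44.1% of all genes of 25 kb or longer.

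**Figure D4:**
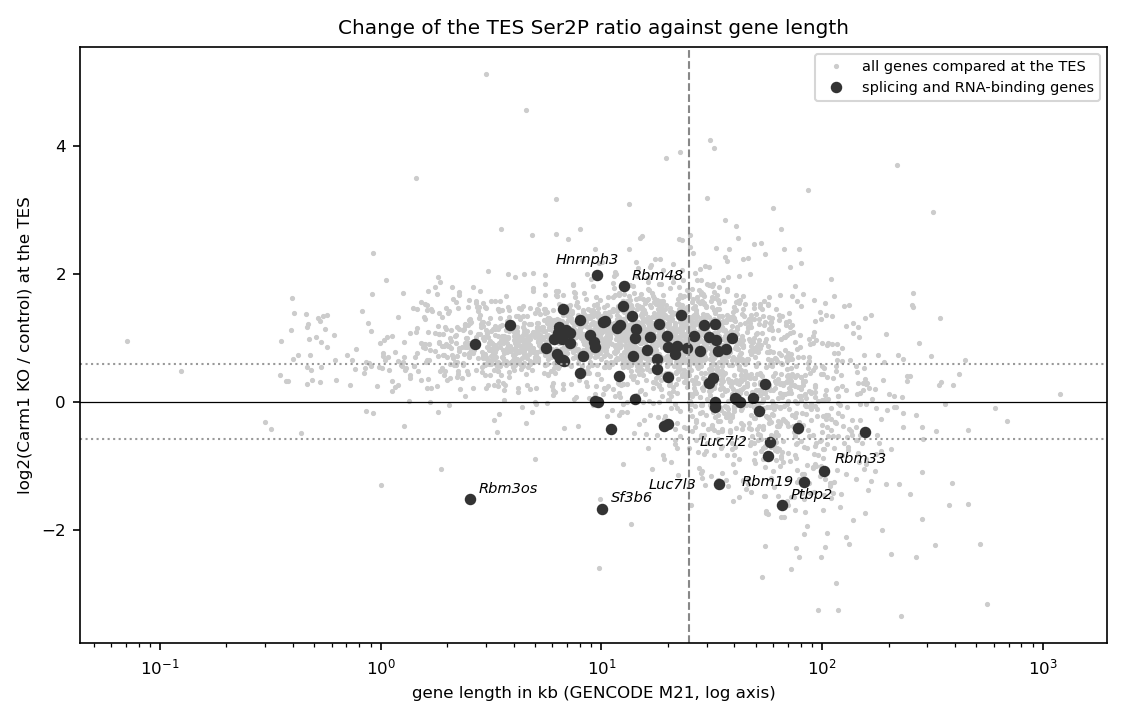
Log2(Carm1 KO ratio / control ratio) at the TES against gene length (log axis) for the splicing genes, drawn over all genes. Splicing genes under 25 kb lie mostly near their median of 0.90, and those of 25 kb or longer spread around a median of 0.05, with 6 of the 8 lower genes among them.

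Close paralogs differed in their TES changes. Luc7l had 6.29 in Carm1 KO cells and 2.71 in control cells, a change of 1.22, whereas those of Luc7l2 and Luc7l3 were -0.62 and -1.29. Ptbp1 had 3.15 in Carm1 KO cells and 1.31 in control cells, a change of 1.26, beside -1.62 in Ptbp2 and -0.41 in Ptbp3. Tra2b had 5.38 in Carm1 KO cells and 3.20 in control cells, but Tra2a had 2.71 in Carm1 KO cells and 3.46 in control cells. Within these 3 families the Carm1 KO value, as deposited, was the higher one in some members and the lower one in others. Ptbp3 and Tra2a did not reach the threshold. Centred changes were -0.10 for Tra2b and -1.20 for Tra2a, so both Tra2 genes lay below the median of all genes. For Luc7l, Luc7l2 and Luc7l3 the centred changes were 0.37, -1.47 and -2.14. For Ptbp1, Ptbp2 and Ptbp3 they were 0.41, -2.47 and -1.26. The lengths were 10.3 kb for Ptbp1, 65.7 kb for Ptbp2 and 77.5 kb for Ptbp3. Luc7l, Luc7l2 and Luc7l3 were 32.6 kb, 58.1 kb and 34.1 kb long, and Tra2a and Tra2b 20.1 kb and 21.5 kb. Whether length bears on these differences was not tested. In the Clk kinases all 3 genes were higher in Carm1 KO cells, with changes of 0.71 in Clk1, 1.20 in Clk2 and 0.86 in Clk4. Tia1 and Tial1, far apart at the TSS, had TES ratios of 6.52 and 7.36 in Carm1 KO cells, and 2.83 and 4.01 in control cells. Both were higher in Carm1 KO cells there.

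**Figure D5:**
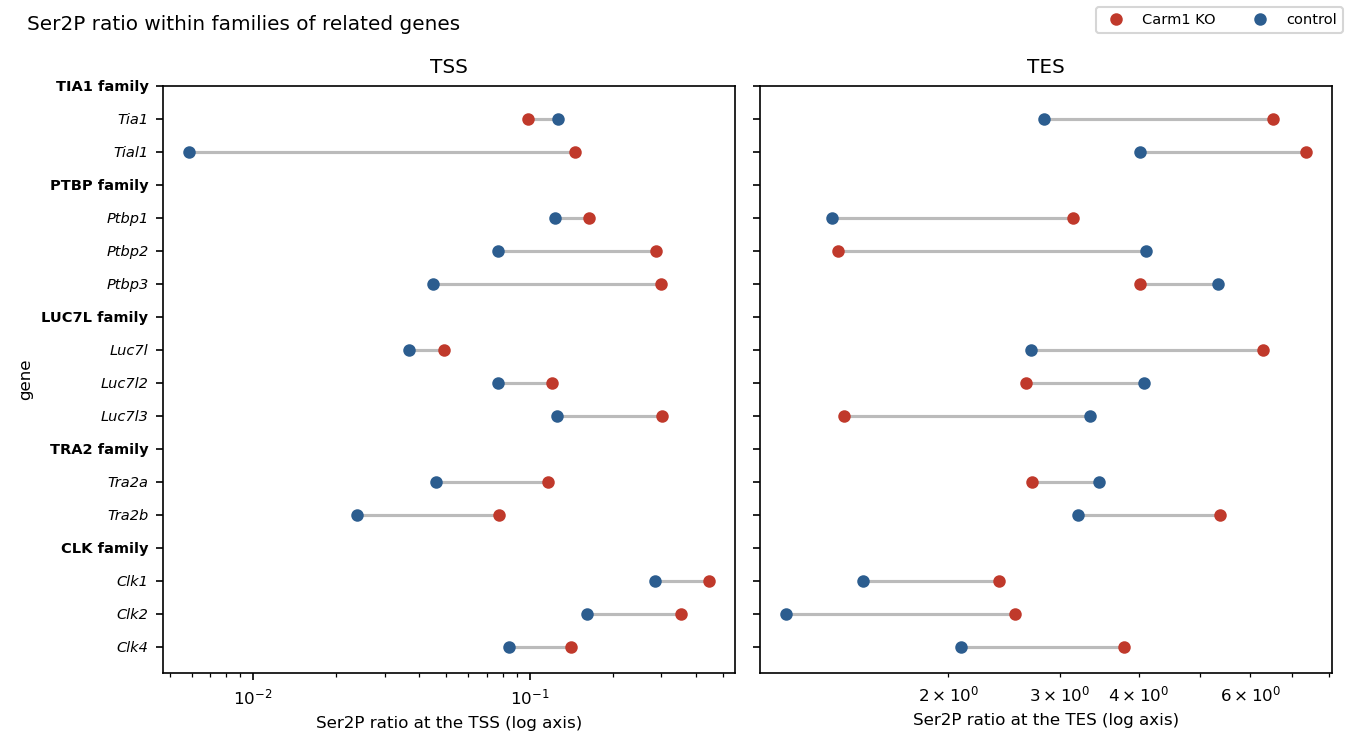
Ser2P ratios (log axes) of the Tia1, Ptbp, Luc7l, Tra2 and Clk families at the TSS (left) and the TES (right), with Carm1 KO and control values joined by a line. At the TES the Carm1 KO value is above the control value in Luc7l, Ptbp1 and Tra2b and below it in Luc7l2, Luc7l3, Ptbp2, Ptbp3 and Tra2a.

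For 5 of the 75 genes compared at both ends the calls at the start and the end had opposite directions, against 8% of all 2775 genes. Ptbp2, Luc7l3, Luc7l2 and Rbm19 were higher at the TSS, with changes of 1.91, 1.26, 0.65 and 0.59, and lower at the TES, with -1.62, -1.29, -0.62 and -1.25. Their TES ratio exceeded their TSS ratio in both conditions, by a smaller factor in Carm1 KO cells. Rbm39 ran the other way, with the TSS change of -0.82 given above and TES ratios of 3.87 in Carm1 KO cells and 1.98 in control cells. The TSS changes of Luc7l2 and Rbm19 lay close to the threshold of 0.58. Centred TSS changes were 0.74 for Ptbp2, 0.09 for Luc7l3, -0.52 for Luc7l2 and -0.58 for Rbm19, and the centred TES change of Rbm39 was 0.12, so of these 5 genes Ptbp2 alone kept opposite calls on that scale. With the median subtracted, 4 genes had opposite calls, Ptbp2, Ptbp3, Lsm14a and Snrnp27, each higher at the TSS and lower at the TES, against 10.2% of all genes. In Carm1 KO cells the TSS ratio exceeded the TES ratio in 4 of 75 genes, namely Snrnp27, Rbm4, Rbm15b and Rbm3os, and in control cells in Rbm4. Over all genes this held for 6.16% in Carm1 KO cells and 2.99% in control cells.

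Neighbouring genes limit what the TSS ratios of some splicing genes can show. Another annotated gene start or end lay within 1 kb of the TSS in 42 of the 82 genes, and within 1 kb of the TES in 16. The window and strand used for counting are not given, so reads of such neighbours cannot be told apart here. For 23 genes the neighbour was a gene on the opposite strand, with its start within 1 kb, that was listed at the TSS too. Tial1, Ptbp3, Sf1 and Snrpe, whose TSS changes were large, also had such a neighbour, but it was not listed at the TSS. The starts of Lsm3, for a ring protein on U6 RNA, and Xpc, for a DNA damage sensor, are 40 bases apart. Lsm3 had 0.124 in Carm1 KO cells and 0.0658 in control cells, whereas Xpc had 0.0497 in Carm1 KO cells and 0.113 in control cells. So the listed ratios of this pair moved in opposite directions. Snrpd3 and Gucd1, 421 bases apart, were both higher in Carm1 KO cells, with changes of 2.18 and 1.61. Hnrnpa2b1 and Cbx3, for a heterochromatin protein, share a promoter region with 466 bases between their starts and had changes of 1.497 and 3.06. Hnrnpa1 and Cbx5, arranged likewise, had changes of 0.23 and 1.33. Dhx38 lies 31 bases from Txnl4b, which had 0.134 in Carm1 KO cells and was listed at 0 in control cells. Rbm3, a cold-induced gene, and Rbm3os overlap, with 451 bases between their starts.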

How the data were processed

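Reads were trimmed with cutadapt 1.18 and TopHat2 2.1.1 was used, with mm10 and GRCm38 as builds, per the submitters' processing notes. The authors deposited 2 tables of Ser2P ratio values, for the TSS and the TES, each with 1 control and 1 Carm1 KO column per gene and their difference, per the file headers. The sources used here name no divisor, window, scaling, strand setting or depth, so no interval or floor could be set. The headers call the ratio a fraction, but values exceed 1. The third column was checked to be the Carm1 KO value less the control value.

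Changes were log2 of the ratio of both conditions over genes above 0 in both. Calls were made at 1.5-fold, with Python 3.11.15 and pandas 2.3.3. The log2 and threshold arithmetic was checked first on simulated ratios with known changes. That check covers the arithmetic alone and says nothing about these data. Gene positions and lengths came from GENCODE M21 (GRCm38), matched by symbol for 82 of 82 genes. Members and lists were chosen with earlier results of these data known. Named genes were the 2 largest and 2 smallest changes of each role and end, lower genes, opposite calls and genes at 0; other genes were added after their values were seen. Snrpb and Snrpc, named by the same rule, were not analysed here, and 1 further gene under the rule is counted but not reported here.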

Additional observations from a re-analysis of the deposited data

How the results depend on the processing

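Centring on the median of all genes had the widest effect: at the TSS it left 18 of 77 genes higher and 19 lower, at the TES 4 of 80 higher and 23 lower. It moved the median change at the TSS to 0.0003 for all members, 0.35 for branch point, 0.36 for Rbm and 0.74 for regulator genes, and turned it to -0.25 for snRNP, -0.0198 for Prpf and helicase, -0.15 for SR, -0.23 for SR-related and -0.0227 for hnRNP genes. At the TES it became -0.0439 for all members, -0.0157 for snRNP, -0.10 for branch point, -0.19 for Prpf and helicase, -0.14 for SR-related and -0.18 for Rbm genes, and 0.11 for SR, 0.0029 for hnRNP and 0.0235 for regulator genes. Of 124 values of named genes, 41 changed sign under centring, and 21 of these had been past 1.5-fold: at the TSS Clk1 -0.52, Clk2 -0.0426, Dhx15 -0.36, Hnrnph3 -0.19, Luc7l2 -0.52, Ncbp1 -0.365, Prpf31 -0.0399, Rbm19 -0.58, Snrnp70 -0.30 and Srsf11 -0.15, and at the TES Clk1 -0.14, Gemin6 -0.21, Hnrnpa1 -0.11, Hnrnpul1 -0.0489, Prpf38a -0.039, Rbm15 -0.14, Sf3b3 -0.0198, Srsf4 -0.0535, Srsf6 -0.0088, Tra2b -0.10 and U2af2 -0.18. Centring subtracts the same value from every gene, which is why these turned. With a pseudocount (0.00809 at the TSS, 0.171 at the TES) 6 genes were lower at the TSS, since the 5 listed at 0 then count, and 2 values of named genes came under the threshold (Rbm19 at the TSS, 0.54, and Gemin6 at the TES, 0.55). With low ratios left out 0 of 64 genes were lower at the TSS, and a 2-fold threshold left 0 of 77 lower at the TSS and 26 of 80 higher at the TES. Over genes whose ratios no other gene shared, 19 of 30 were higher at the TSS and 3 of 61 lower at the TES, and TSS medians were 2.60 for Prpf and helicase genes (2 genes), -0.082 for SR genes (1 gene) and 0.26 for regulators (3 genes). Without genes near another gene end, 28 of 38 were higher at the TSS, the regulators' median was 1.08 at the TSS and 0.23 at the TES, and the SR-related median at the TES was -0.21. Among genes under 25 kb the regulators' TSS median was 2.52 (2 genes). Beyond the smaller number of genes, the cause of these shifts was not tested. No share of all genes was computed with a pseudocount, low ratios left out, a 2-fold threshold, unshared ratios or no gene end near. The counts under those settings are therefore no result about splicing genes as a group. Leaving out Rbm3os, an alternative chosen after seeing the data, moved no count or median of all members past the limit used. No paired analysis was possible because each group had 1 library, and none could be left out. Depth is unknown, which limits the low TSS ratios most.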

Other observations

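A list of 84 further splicing genes outside the families above, with exon junction, Gemin and spliceosome assembly proteins, held 42 genes listed in these cells. At the TSS 35 of 41 were higher in Carm1 KO cells (85.4%) and 0 were lower, against 71.2% and 5.6% of all genes, with a median change of 1.5 beside 1.17. No test was made of this difference. Sart3, for a protein that recycles the U4 and U6 snRNPs, had a TSS ratio of 0.153 in Carm1 KO cells and 0.0116 in control cells, a change of 3.73. Puf60, for a U2AF-related factor, had 0.183 in Carm1 KO cells and 0.0143 in control cells, a change of 3.68. With a pseudocount of 0.00809 these changes were 3.04 for Sart3 and 3.09 for Puf60. Both control values were low. Tardbp, which encodes TDP-43, had 0.0516 in Carm1 KO cells and 0.0684 in control cells, and Gemin6, for a protein of the complex that loads Sm rings, had 0.0369 in Carm1 KO cells and 0.0421 in control cells. Wbp11 was listed at 0 in Carm1 KO cells and at 0.0232 in control cells.

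At the TES 32 of 41 of these genes were higher in Carm1 KO cells (78.0%), against 66.7% of all genes, and 1 was lower, against 7.13%, with a median change of 0.86 beside 0.85. Rnps1, for a protein of the exon junction complex, had 2.77 in Carm1 KO cells and 0.761 in control cells, a change of 1.86. Elavl1, which encodes the RNA-stabilising protein HuR, had 10.0 in Carm1 KO cells and 4.11 in control cells. The lower gene was Cwc27, for a spliceosomal cyclophilin, with 0.703 in Carm1 KO cells and 2.83 in control cells, a change of -2.01. Ncbp1, for the large subunit of the nuclear cap-binding complex, had 3.49 in Carm1 KO cells and 4.27 in control cells, which did not reach the threshold.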
